A study of Mus musculus with 17 samples.

Results

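The comparison of Pelo -/- with WT epidermal cells sorted for Lrig1 rested on 5 of the 17 libraries of the series, namely 2 labelled WT and 3 labelled Pelo -/-. They were chosen by population and genotype alone, and all 21141 genes that passed a low-count filter were compared, out of 48820 gene identifiers counted. Every mouse was of strain C57BL/6, was 3 months old, had been given 4-hydroxytamoxifen (4-OHT) and carried an EGFP-CreERT2 cassette at Lrig1, which makes the marked cells fluorescent and supplies a Cre recombinase that 4-OHT activates. WT mice were Pelo fl/+, so that the control cells held Cre and 1 floxed Pelo allele as well, and Pelo -/- mice were Pelo fl/fl. From each epidermal suspension 1000 cells positive for the green fluorescent protein were collected, and total RNA was sequenced. The series text states 3 replicates for each condition, whereas 2 of WT Lrig1 were used here. Whether replicates came from separate animals, how long after treatment the cells were taken and which exon of Pelo is floxed could not be read from the labels, so the p-values measure the spread between these libraries, which may be technical in part. A reference set of 6 libraries from mice with the same Pelo genotypes and the cassette at Lgr6 (3 WT, 3 Pelo -/-) entered the same fit, and 6 with the cassette at Lgr5 were used for 1 further comparison.

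Pelota, the product of Pelo, works with the GTPase Hbs1l and the ATPase Abce1 to split ribosomes that have stalled on a messenger RNA, for example at its broken 3′ end, so that the transcript can be degraded and the subunits used again. Lrig1 is a membrane protein that restrains receptors of the EGF family, and it marks stem cells of the upper hair follicle that supply the infundibulum and the sebaceous gland. The comparison asked which transcripts differ in these cells when Pelo has been deleted.

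Libraries held between 13333497 and 26827421 counts (median 21694454), with the lowest total in Pelo -/- replicate 3 and the highest in WT replicate 2. Between 27824 and 32590 genes had a count in a library, and transcripts of the mitochondrial genome took 6.50% to 7.68% of counts. Levels below are TMM-scaled CPM, in which each count is divided by the size of its library, and are given in the order WT replicates 1 and 2, then Pelo -/- replicates 1, 2 and 3. The TMM factor was lowest in WT replicate 2 (0.865) and highest in Pelo -/- replicate 3 (1.09). Across genes, the rank correlation was 0.902 between the WT libraries, 0.903 to 0.914 among the 3 pairs of Pelo -/- libraries and 0.894 to 0.910 among the 6 pairs that crossed genotype. Of the 9159 genes with a mean of at least 3 on the log2 CPM scale, 12.8% differed by more than 2-fold between the WT libraries, 8.29% to 12.9% within a Pelo -/- pair, and 9.88% to 18.8% between genotypes. The ranges within and between genotypes overlapped.

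Marker genes placed all 5 libraries in the epidermis and the hair follicle. The 6 basal keratinocyte markers summed to 14912 and 12098 CPM in WT and to 17859, 14934 and 14768 in Pelo -/-, led by Krt14 and Krt5, the keratins of the basal layer. The 9 upper follicle markers summed to 670 and 1041 CPM in WT and to 572, 721 and 705 in Pelo -/-. Bulge markers were also abundant, at 6899 and 6432 CPM in WT and 8042, 7902 and 6223 in Pelo -/-, and nearly all of this was Krt15 (6059 and 5467, then 7318, 7095 and 5401 CPM). Transcripts of other cells were present at lower levels. Antigen-presenting cell markers summed to between 68.7 and 155 CPM, melanocyte markers to between 11.6 and 28.2, endothelial markers to between 2.48 and 7.24 and Merkel cell markers to between 0.331 and 1.97. The 4 mast cell markers did not pass the low-count filter, and the highest count of any of them in a Lrig1 library was 12 (Tpsb2). T cell markers were below 50 CPM in each library but stood at 11.9 and 17.2 CPM in WT against 19.3, 49.1 and 30.1 in Pelo -/-.

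Pelo itself was scarce. Its level was 4.75 and 3.32 CPM in WT and 3.2, 0.441 and 0.762 CPM in Pelo -/-, from counts of 101 and 77 against 70, 8 and 11. Both WT libraries were above all 3 Pelo -/- libraries, but the library labelled Pelo -/- replicate 1 lay within a few counts of WT replicate 2, and replicates 2 and 3 were far lower. The log2 fold change was -1.31 ± 0.74 (SE; 95% interval -2.88 to 0.26; unadjusted p = 0.0945 and adjusted p = 0.849 in edgeR), and without the library labelled Pelo -/- replicate 1 it was -2.77 ± 0.95 (adjusted p = 0.813). In the GENCODE M21 annotation of GRCm38, Pelo lies on the minus strand at chr13:115088355-115090186, inside Itga1, an integrin subunit gene on the same strand. That annotation also lists Gm49395 (739 shared exonic bases, same strand) and Gm10734 (468 shared exonic bases, opposite strand) there, so reads from the locus may be divided between models. Because the floxed exon is not given, the residual counts could come from a part of the gene that the deletion leaves, and whether they do was not tested.

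The partners of Pelota had values of opposite sign. Hbs1l, the GTPase that delivers Pelota to the ribosome, stood at 36.4 and 35.4 CPM in WT and 51.1, 69.9 and 45.3 CPM in Pelo -/-. All 3 Pelo -/- libraries were above both controls, with a log2 fold change of 0.63 ± 0.39 (adjusted p = 0.874). Abce1, the ATPase that separates the subunits, was at 107 and 118 CPM in WT and 107, 84.5 and 82.0 in Pelo -/-, where replicate 1 overlapped the controls (-0.30 ± 0.31).

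Lrig1, the gene that defines the sort, was uneven. It was at 30.8 and 37.2 CPM in WT and at 31.6, 6.79 and 10.3 CPM in Pelo -/-, so replicate 1 lay between the controls and replicates 2 and 3 lay below both. The log2 fold change was -1.02 ± 0.48 (95% interval -2.04 to 0.00; unadjusted p = 0.0506, adjusted p = 0.793). It was -2.01 without the library labelled Pelo -/- replicate 1 and -0.66 without replicate 2. The libraries with the least Pelo were therefore also those with the least Lrig1. Lgr6, a receptor of R-spondins that marks the isthmus, was at 85.3 and 52 CPM in WT and 88.5, 70.7 and 89.0 in Pelo -/- (0.27 ± 0.40), and Lgr5, its relative in the lower bulge, at 22 and 7.55 against 13.4, 26.9 and 5.54 (0.09 ± 0.82). Without 1 library the value ran from -0.03 to 0.65 for Lgr6 and from -0.57 to 1.02 for Lgr5. Groups overlapped for both receptors, as they did for Itga1 (1.72 ± 1.28), whose value rested on 4.57 CPM in Pelo -/- replicate 3 and came to -0.08 without that library.

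**Figure D1:**
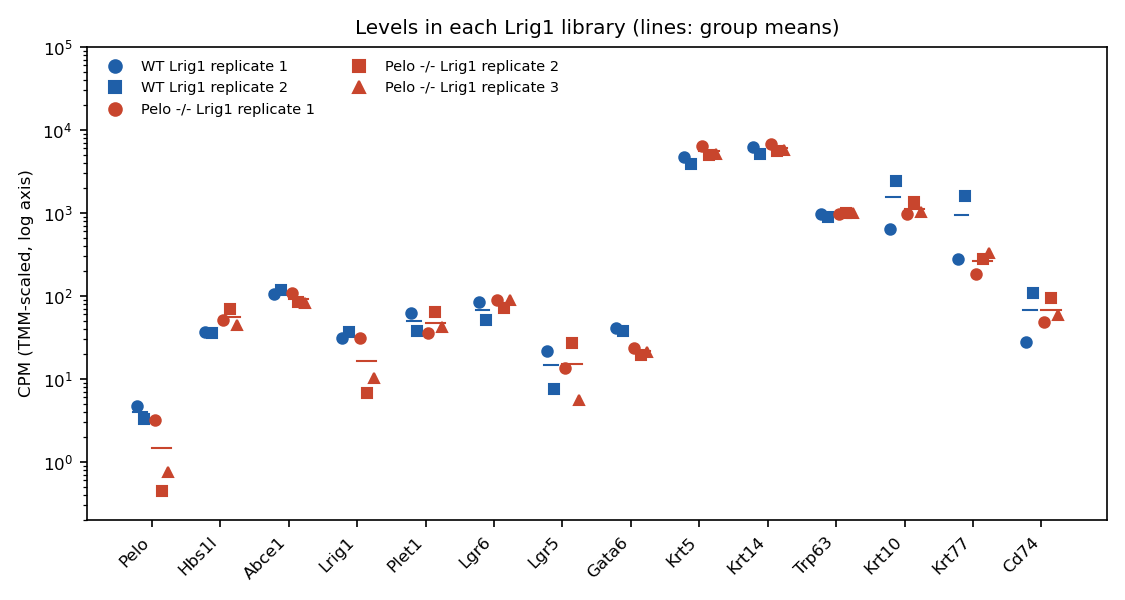
Level of 14 genes in each of the 5 Lrig1 libraries, in TMM-scaled CPM on a log axis, with WT libraries in blue, Pelo -/- libraries in red, a shape for each replicate and a line at each group mean. Pelo is the scarcest gene drawn and is lowest in Pelo -/- replicates 2 and 3, where Lrig1 is lowest too, while Krt5, Krt14 and Trp63 lie close together and Krt10 and Krt77 are highest in WT replicate 2.

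No gene passed an adjusted p of 0.05 in the edgeR quasi-likelihood test, so 0% of the 21141 genes were called in either direction. At an unadjusted p under 0.05 there were 1321 genes (6.25% of those tested, where 5% is 1057), with 671 higher (3.17%) and 650 lower (3.07%) in Pelo -/-. Among genes of at least 3 on the log2 CPM scale it was 384 of 9159, or 4.19%. Limma-voom called 0 genes (924 at an unadjusted p under 0.05), and DESeq2 called 65, of which 48 were higher and 17 lower. Without the library labelled Pelo -/- replicate 1 edgeR also called 0 genes, of 20794 tested, with 1117 at an unadjusted p under 0.05. The smallest adjusted p in edgeR was 0.277 and was reached by 4 genes, all with a mean below 1 on the log2 CPM scale. One of them, named after its values were seen, was Ppp1r3b, a subunit that directs protein phosphatase 1 to glycogen, at 4.61 and 3.15 CPM in WT and 0.502, 0.166 and 0.554 CPM in Pelo -/- (-3.24 ± 0.65).

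The precision bounds what such a comparison could show. The median log2 fold change over all genes was 0.03, and its quartiles were -0.40 and 0.51. The SE had a median of 0.72 over all genes and of 0.40 at 3 or more on the log2 CPM scale, where the 95% interval reached a median of 0.85 to either side. For a typical well-detected gene, a difference of less than that could thus not be told from 0 even before adjustment. A call after adjustment needs more, and larger differences also went uncalled, such as -2.31 for Atp5s (adjusted p = 0.430 in edgeR). All 3 Pelo -/- libraries exceeded both controls in 2242 genes (10.6%) and were below both in 2152 (10.2%).

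**Figure D2:**
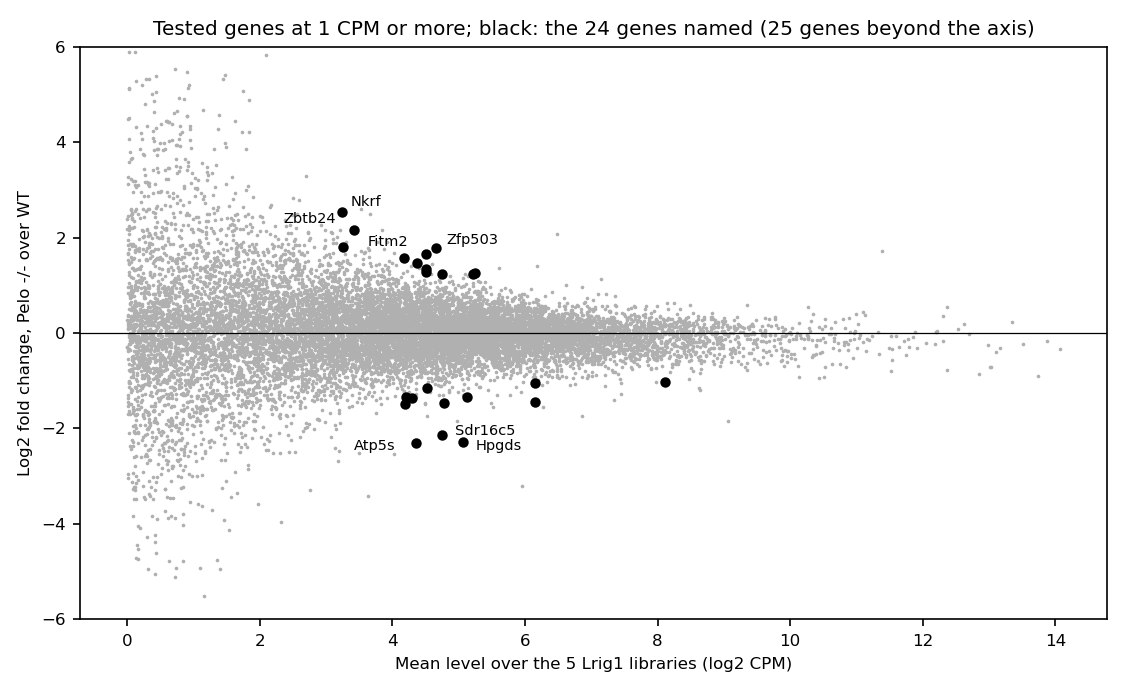
Log2 fold change of Pelo -/- over WT against the mean level over the 5 Lrig1 libraries, on the log2 CPM scale, for the 14042 tested genes at 1 CPM or more, with the 24 genes named in the text in black. The scatter widens toward low levels, the named genes lie at the rim of the cloud above and below 0, and 25 genes lie beyond the axis.

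The genes described next are the 12 per direction with the smallest unadjusted p among protein-coding genes of at least 3 on the log2 CPM scale whose groups did not overlap. They are given as values, because none passed the adjustment (adjusted p from 0.510 to 0.600 for the higher and from 0.430 to 0.655 for the lower ones). Their separation was part of the choice and is no result. In DESeq2, run on the same counts, 11 of the 12 higher and 3 of the 12 lower genes had an adjusted p under 0.05, beside 65 of all 21141 genes. The 24 were chosen for a small edgeR p on those counts, which favours them in a second test, so this count is no separate support. All 24 kept their sign in each of 15 settings. Groups chosen not to overlap leave little room for a change of sign, so this is no result either. Without the library labelled Pelo -/- replicate 1 their log2 fold changes ran from 1.14 to 2.54 and from -2.66 to -0.83.

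Among the higher genes, 5 encode regulators of transcription. Zfp503, a zinc finger repressor, stood at 9.92 and 10.6 CPM in WT and 43.2, 36.8 and 25.8 CPM in Pelo -/-, a log2 fold change of 1.79 ± 0.43 or 3.46-fold (95% interval 1.83 to 6.53). The controls nearly coincided. Zbtb24, a zinc finger protein whose human counterpart is mutated in an immunodeficiency with unstable centromeres, was at 2.35 and 4.36 CPM in WT and 10.6, 11.9 and 24.4 CPM in Pelo -/- (2.17 ± 0.62). Nkrf, a repressor of NF-kappaB targets, was at 4.56 and 0.475 CPM in WT and 14, 15.9 and 12.5 CPM in Pelo -/- (2.53 ± 0.69, but 4.86 without WT replicate 1 and 1.65 without WT replicate 2). The Pelo -/- libraries lay close together for Nkrf, whereas the controls were far apart, and it was the 1 higher gene that DESeq2 did not call (adjusted p = 0.0948). Hivep1, which binds kappaB-like enhancers, stood at 13.1 and 11.3 CPM against 21.1, 32.5 and 35.5 CPM (1.27 ± 0.37). Jmjd6, a hydroxylase of lysines in splicing and chromatin proteins, was at 9.26 and 10.7 CPM against 27.8, 26.5 and 29.2 CPM (1.48 ± 0.41), with narrow spread in both groups. Of its 4698 exonic bases, 173 are shared with Gm27401 on the same strand and 172 with Mettl23 on the opposite strand. Reads from these bases cannot be assigned with certainty, and no strand is stated for the counting.

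A further group of higher genes acts in growth and ion signalling. Flcn encodes folliculin, which with the Rag GTPases relays amino acid supply to mTORC1. It stood at 7.01 and 9.45 CPM in WT and at 23.8, 26.3 and 23.5 CPM in Pelo -/-, a log2 fold change of 1.57 ± 0.39 or 2.97-fold (95% interval 1.66 to 5.33), and the 3 Pelo -/- libraries lay close together. It was the member with the smallest p among 32 tested genes of the mTOR pathway, and the kinase Mtor (0.08 ± 0.40) and its partners Rptor (0.37 ± 0.48) and Rictor (0.38 ± 0.39) had overlapping groups. Oxsr1, a kinase that activates cation-chloride cotransporters, was at 15.5 and 14.3 CPM against 38.8, 35.4 and 30.4 CPM (1.23 ± 0.33). Cnksr3, a scaffold in sodium channel regulation, was at 3.86 and 3.80 CPM against 15.8, 10.8 and 13.6 CPM (1.81 ± 0.50). For both, the controls nearly coincided.

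The remaining higher genes have scattered roles. Fitm2, a protein of the endoplasmic reticulum needed for lipid droplets to form, was at 5.31 and 14.2 CPM in WT and 26.8, 35.5 and 31.4 CPM in Pelo -/- (1.66 ± 0.42). Its value was 1.11 without WT replicate 1 and 2.57 without WT replicate 2. Myo6, an actin motor that moves toward the minus end, was at 25.3 and 16.1 CPM against 50.8, 49.6 and 48.3 CPM (1.27 ± 0.33). Senp7, a protease that trims SUMO chains, was at 18.9 and 21.8 CPM against 48.4, 47 and 49.5 CPM (1.24 ± 0.34). In Myo6 and Senp7 the 3 Pelo -/- libraries were almost level. Hccs, which attaches heme to cytochrome c, was at 12.9 and 10.8 CPM against 37.5, 24.3 and 27.9 CPM (1.34 ± 0.38). Fitm2 and Hccs share exonic bases with genes on the opposite strand.

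Among the lower genes, 4 encode enzymes or factors of mitochondria and of lipid or retinoid metabolism. Atp5s, coupling factor B of the mitochondrial ATP synthase, was at 31.8 and 47.3 CPM in WT and 10.8, 6.90 and 5.54 CPM in Pelo -/-, a log2 fold change of -2.31 ± 0.46 (95% interval -3.30 to -1.33), or 4.97-fold lower. Its adjusted p of 0.430 was the smallest of the 24 genes, and DESeq2 gave 0.00562. Hpgds, which makes prostaglandin D2, was at 27.1 and 100 CPM in WT and 14.8, 9.05 and 15.7 CPM in Pelo -/- (-2.28 ± 0.61). The Pelo -/- libraries lay close together while the controls were far apart, with WT replicate 2 the higher, and the log2 fold change was between -2.95 and -1.03 over the settings tried, the last without WT replicate 2. Sdr16c5, an epidermal retinol dehydrogenase, was at 34.3 and 67 CPM against 15.8, 11.5 and 6.44 CPM (-2.13 ± 0.55). Cbr4, a reductase of mitochondrial fatty acid synthesis, was at 33.3 and 35.1 CPM against 14.3, 11.9 and 20.8 CPM (-1.14 ± 0.33), with the controls almost equal.

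Other lower genes act in the endoplasmic reticulum, the nuclear envelope and nucleotide supply. Ssr1, a subunit of the complex beside the protein translocon, was the most abundant of the 24, at 371 and 422 CPM in WT and 139, 225 and 220 CPM in Pelo -/- (-1.03 ± 0.30). Lbr, which anchors lamin B and heterochromatin at the nuclear rim and reduces sterols, was at 108 and 121 CPM against 52.2, 34.6 and 38.5 CPM (-1.44 ± 0.44). It shares 440 exonic bases with Dnah14 on the opposite strand and 69 with Gm26004, annotated as an rRNA, on the same strand. Dctpp1, which hydrolyses dCTP, was at 93.5 and 114 CPM against 54.6, 47 and 47.9 CPM (-1.06 ± 0.31). In each of these the controls lay close together. Slc29a3, a nucleoside transporter, was at 19.3 and 39.6 CPM against 5.93, 15.8 and 10.5 CPM (-1.48 ± 0.45, and -0.85 without WT replicate 2), where the gap between groups was small beside the gap between the controls.

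The last of the lower genes were regulators. Zfp97, a zinc finger protein, was at 46.8 and 63 CPM in WT and 20.2, 24 and 20.6 CPM in Pelo -/- (-1.35 ± 0.34). Gpatch11, a protein with a glycine-rich G-patch, was at 46.1 and 43.9 CPM against 20.04, 15.3 and 12.5 CPM (-1.48 ± 0.44). Pim3, a kinase that promotes growth and survival, was at 24.2 and 38.4 CPM against 11.4, 17.5 and 7.13 CPM (-1.37 ± 0.42). For Zfp97 and Gpatch11 the gap between the groups was wide beside the spread within them, and for Pim3 replicate 2 of Pelo -/- came nearest to WT replicate 1. Mnd1, a partner of the meiotic recombinases, was at 28.3 and 29.5 CPM against 10.3, 14 and 9.83 CPM (-1.35 ± 0.39). Its value is uncertain, because the copy annotated as Mnd1-ps had a like difference (19.5 and 16 CPM against 6.85, 5.90 and 6.86 CPM, -1.44 ± 0.42) and reads may be shared between them. In 11 of the 12 lower genes WT replicate 2 was above WT replicate 1, against 47.5% of all genes tested, and in the higher genes it was 6 of 12.

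**Figure D3:**
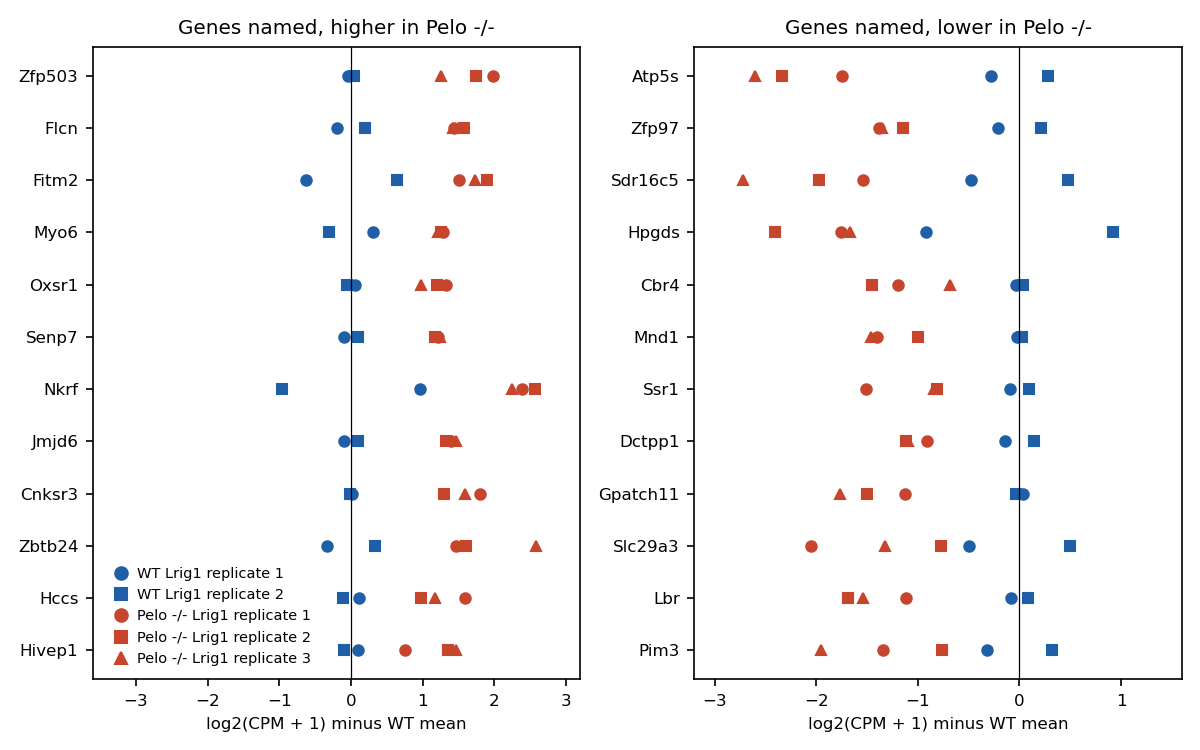
Log2(CPM + 1) of the 12 higher (left) and 12 lower (right) genes in each Lrig1 library, as the difference from the mean of the 2 WT libraries, with WT in blue and Pelo -/- in red and a shape for each replicate. The groups lie apart by the way the genes were chosen, and the controls lie far apart for Nkrf, Fitm2 and Hpgds.

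To see how genes of known processes stood, 43 lists holding 1267 genes were read, of which 1233 genes were tested and edgeR called 0. DESeq2 called 4 list members, namely Vldlr, Flcn, Atp5s and Col5a2. The lists' median log2 fold changes ran from -0.36 to 0.49, beside 0.03 over all genes, of which 51.9% had a value above 0 and 48% below. By library, the median member of 39 lists overlapped between the genotypes. In 31 of the 43 lists the WT libraries differed from each other by more than the genotypes did. Leaving out 1 WT library turned the sign of the median in 26 of the 43 lists, and turned it or moved it by over 1.5 times in 41.

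Translation and ribosome rescue differed little. Of 22 tested genes of ribosome rescue and collision sensing, 13 had values above 0 and the median was 0.08, with a range from -1.31 for Pelo to 0.63 for Hbs1l. Large-subunit ribosomal protein genes had values above 0 in 32 of 47, and 14 were higher in all Pelo -/- libraries than in both controls while 0 were lower in all (10.6% and 10.2% of all genes tested, and 11.7% and 12.5% of those at 3 or more on the log2 CPM scale), with a median of 0.11 that became -0.03 without WT replicate 1. The small subunit had 20 of 32 above 0 (median 0.04). Rpl29 stood out in the large-subunit list, at 28.5 and 31.9 CPM in WT and 109, 103 and 173 CPM in Pelo -/- (2.08 ± 0.68, adjusted p = 0.689). Ribosomal protein genes have many near-identical copies, however, and the division of reads among them is uncertain. Among translation factors 16 of 29 were above 0 (median 0.03), with the elongation factor Eef1a1 at 4705 and 4619 CPM against 5464, 4881 and 4119 CPM. In ribosome biogenesis 21 of 33 were above 0 (median 0.12), among them the pre-rRNA processing factor Pes1 (0.76 ± 0.34).

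Among 30 genes of RNA decay and surveillance, 18 were above 0 and the median was 0.07. The nonsense-mediated decay factor Upf2 was at 80.7 and 49.7 CPM in WT and 64.7, 69.6 and 68.3 CPM in Pelo -/-, within the range of the controls. Exosc2, a subunit of the RNA exosome, which degrades transcripts from their 3′ end, was at 23 and 25.2 CPM against 49.3, 62.6 and 40.6 CPM (1.08 ± 0.40, adjusted p = 0.717), and its 3 Pelo -/- libraries were all above the controls. The 5′ exonuclease Xrn1 (0.38 ± 0.32) and the decapping enzyme Dcp2 (0.68 ± 0.50) had overlapping groups.

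Stress pathways gave mixed values. In the integrated stress response, by which phosphorylated eIF2alpha favours translation of Atf4, 12 of 28 genes were above 0 and the median was -0.08. Atf4 was at 118 and 172 CPM in WT and 111, 169 and 125 CPM in Pelo -/- (-0.10 ± 0.32), spanning the same range in both groups. Vldlr, a lipoprotein receptor on this list, was at 1.22 and 1.34 CPM against 6.71, 6.23 and 14.7 CPM (2.79 ± 0.74, adjusted p = 0.547 in edgeR and 6.92e-04 in DESeq2), and the glycyl-tRNA synthetase Gars at 19.2 and 19.2 CPM against 31.6, 44.5 and 53.5 CPM (1.16 ± 0.37, adjusted p = 0.668). Both had groups apart, whereas Ddit3, a proapoptotic target of Atf4, stood at 6.25 and 25.5 CPM against 8.90, 6.95 and 6.09 CPM (-1.11 ± 0.55). The unfolded protein response had 10 of 23 above 0 (median -0.07), with the chaperone Hspa5 at -0.07 ± 0.31. Heat shock genes had 9 of 23 above 0 (median -0.05), although the inducible Hsp70 gene Hspa1b was at 88.7 and 116 CPM against 139, 233 and 168 CPM (0.82 ± 0.35, adjusted p = 0.767).

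Genes of the proteasome and of mitochondria were mostly below 0. Of 31 proteasome genes 27 had values below 0, with a median of -0.27. In 7 of the 31 all Pelo -/- libraries were below both controls and in 1 above, where 12.5% and 11.7% of genes at 3 or more on the log2 CPM scale were. Psmd14, the deubiquitinase of the lid, was at 197 and 228 CPM in WT and 123, 150 and 96.7 CPM in Pelo -/- (-0.78 ± 0.31, adjusted p = 0.752), and the catalytic subunit Psmb6 at 507 and 772 against 405, 460 and 323 CPM (-0.69 ± 0.31). The sum over the list was 5245 and 7025 CPM in WT and 4824, 5505 and 3761 CPM in Pelo -/-, so the groups overlapped, with WT replicate 2 the highest and Pelo -/- replicate 3 the lowest. Without WT replicate 2 the median was -0.08, and without WT replicate 1 it was -0.52.

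The nuclear genes of oxidative phosphorylation had 61 of 77 below 0 and a median of -0.23, which became 0.01 without WT replicate 2. Relative to the WT mean on the log2(CPM + 1) scale, their median member was at -0.24 and 0.24 in WT and at -0.09, -0.06 and -0.50 in Pelo -/-. Pelo -/- replicates 1 and 2 thus lay between the controls. In 7 of the 77 all Pelo -/- libraries were below both controls and in 2 above, beside 12.5% and 11.7% of genes at 3 or more on the log2 CPM scale. Among the 7, Ndufb7, a subunit of complex I, was at 24.5 and 39.1 CPM in WT and 11.6, 19.4 and 8.10 CPM in Pelo -/- (-1.27 ± 0.48, adjusted p = 0.732). Of 74 tested mitochondrial ribosome genes 55 were below 0 (median -0.21, and 0.00 without WT replicate 2), and in 18 of the 74 all Pelo -/- libraries were below both controls, in 6 above, beside the same 12.5% and 11.7%. Among the 18, Mrps16 was at 98.6 and 124 CPM against 84.5, 58.4 and 49.7 CPM (-0.79 ± 0.32). On the same scale, the median mitochondrial ribosome gene was at -0.18 and 0.18 in WT and at -0.13, -0.15 and -0.38 in Pelo -/-, so the groups overlapped. The 13 protein genes of the mitochondrial genome had a median of -0.08 and were the 1 process list of the 43 whose median member was lower in every Pelo -/- library than in both controls. The gap was small beside the SE of single genes, as for mt-Co1 at 15665 and 16654 CPM against 14457, 14460 and 14144 CPM (-0.17 ± 0.31). Glycolysis genes, by contrast in sign, had 12 of 18 above 0 with a median of 0.05.

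Cell division genes had values of both signs. In S phase and replication 22 of 41 were below 0 (median -0.03), with the clamp Pcna at 257 and 258 CPM in WT and 225, 213 and 207 CPM in Pelo -/- (-0.26 ± 0.25). The polymerase alpha subunit Pola2 was at 15.3 and 10.9 CPM against 5.39, 4.14 and 7.13 CPM (-1.26 ± 0.47), whereas the catalytic subunit of polymerase epsilon, Pole, was at 11.4 and 6.47 CPM against 23.7, 17.7 and 15.7 CPM (1.12 ± 0.43), so 2 replication genes with groups apart had opposite signs. In G2 and mitosis 25 of 44 were below 0 (median -0.02). The proliferation marker Mki67 was at 61.9 and 64.6 CPM against 51.6, 55.6 and 81.9 CPM (-0.01 ± 0.33). The median member of this list was -0.73 in Pelo -/- replicate 2 and 0.34 in replicate 3 on the log2(CPM + 1) scale relative to the WT mean, so the Pelo -/- libraries lay on both sides of the controls. Targets of p53 and CDK inhibitors had 19 of 32 below 0 (median -0.11), with Cdkn1a at 75.2 and 130 CPM against 76.5, 131 and 76.4 CPM.

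**Figure D4:**
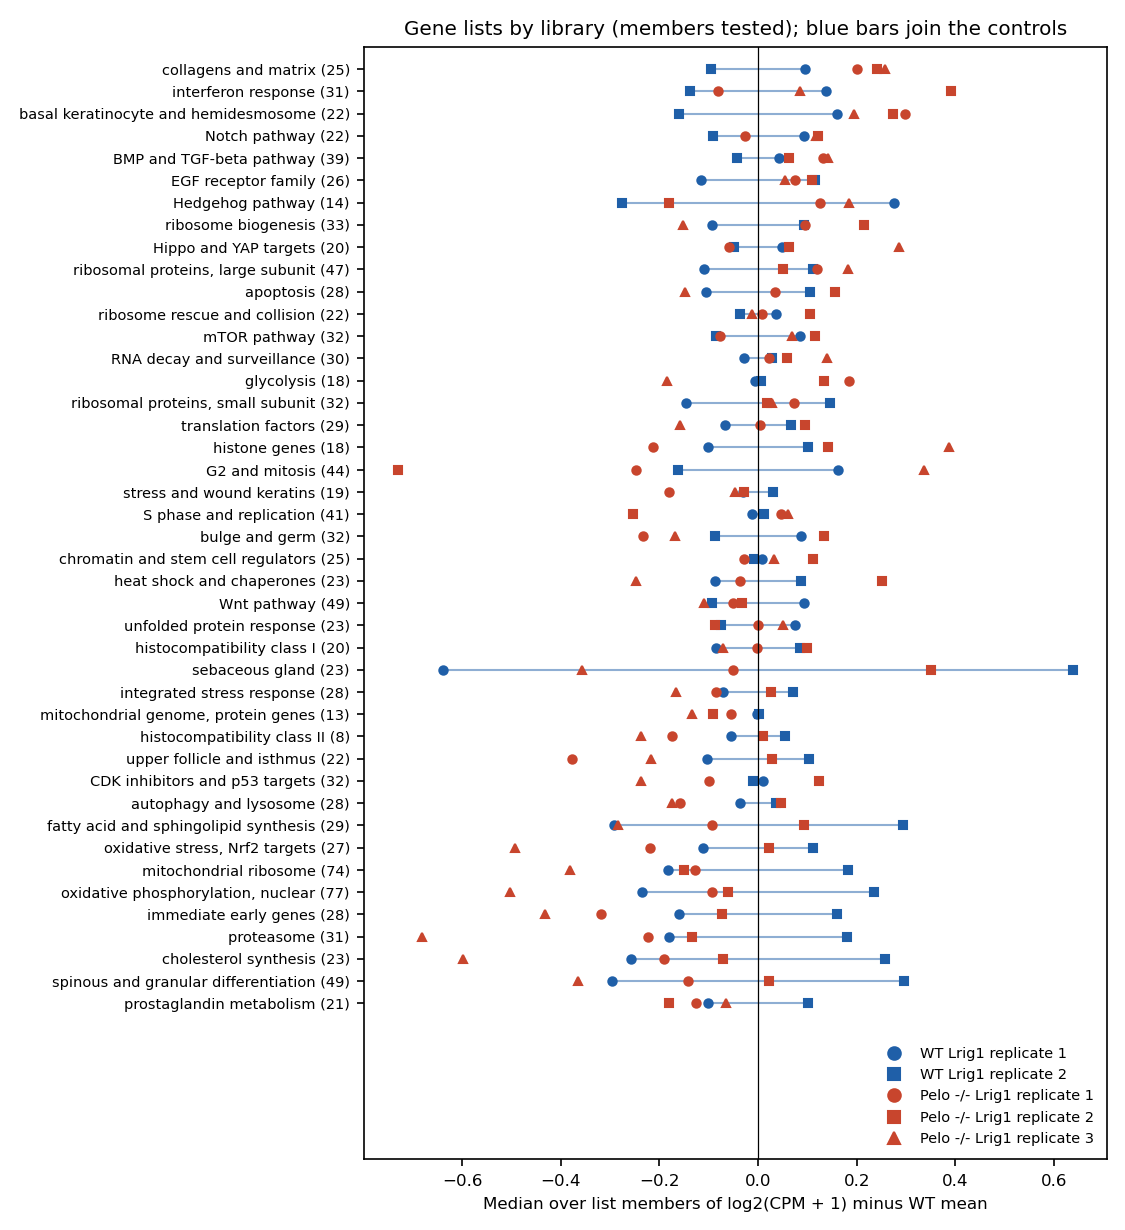
Median over the tested members (number in brackets) of log2(CPM + 1) in each Lrig1 library, as the difference from the WT mean, for 43 gene lists ordered by their median fold change, with WT in blue joined by a bar and Pelo -/- in red. The bar between the controls spans the Pelo -/- points in many lists and is widest for the sebaceous gland list.

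Differentiation genes differed widely between the controls themselves. Of 49 tested genes of the spinous and granular layers 35 had values below 0, with a median of -0.34, and this was -0.71 without WT replicate 1 and 0.32 without WT replicate 2. Krt10, the keratin of the spinous layer, was at 645 and 2451 CPM in WT and 982, 1371 and 1033 CPM in Pelo -/-, all 3 of which lay between the controls. Krt77, a keratin of the suprabasal epidermis, was at 280 and 1613 CPM against 184, 276 and 333 CPM (-1.84 ± 0.59, adjusted p = 0.662), where 1 Pelo -/- library was above WT replicate 1. The 7 interfollicular markers, which include both keratins, all had values below 0, and they summed to 6535 and 17050 CPM in WT and 7670, 10438 and 5835 CPM in Pelo -/-. None of them was at 0, and WT replicate 2 held 2.61 times as much as WT replicate 1. The part that the content of interfollicular cells has in the values of this list was not tested. In a bulk sample, a change in the number of cells of a type and a change in RNA per cell cannot be told apart.

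Genes of the basal layer lay on the other side. Of 22 genes of the basal keratinocyte and its hemidesmosomes, which tie the cell to the basement membrane, 19 were above 0 with a median of 0.23, and the median member was higher in every Pelo -/- library than in both controls. Lamb3, a chain of laminin 332, was at 136 and 116 CPM in WT and 206, 214 and 146 CPM in Pelo -/- (0.59 ± 0.30, adjusted p = 0.809). Itgb4, the hemidesmosomal integrin, was at 117 and 79.6 CPM against 155, 141 and 131 CPM (0.53 ± 0.30). The groups were apart in both, and the list's median stayed above 0 in every setting, between 0.09 and 0.49. Collagens and other matrix genes had 15 of 25 above 0 and the highest median of any list, 0.49, and Col4a2 of the basement membrane was at 14.6 and 21.9 CPM against 34.1, 26.6 and 28 CPM (0.70 ± 0.38). The 6 tested fibroblast markers all had values above 0, at sums of 9.17 and 3.45 CPM in WT against 11.5, 17 and 13.7 CPM in Pelo -/-. Dcn was at 0 in both controls and in Pelo -/- replicate 1. These markers overlap the matrix list, whose median of 0.49 is the lowest fibroblast marker value, so they are no separate observation. Their part in the matrix values was not tested.

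Markers of the sorted population itself were mostly below 0. Of the 9 upper follicle markers, which include Lrig1, 8 had values below 0 with a median of -0.41. Relative to the WT mean on the log2(CPM + 1) scale, their median member was at -0.13 and 0.13 in WT and at -0.45, -0.21 and -0.24 in Pelo -/-, below both controls in every library, while their sums, given above, overlapped. The longer list of upper follicle and isthmus genes had 15 of 22 below 0 (median -0.11, and 0.05 without WT replicate 2), and its groups overlapped. Gata6, a transcription factor of the upper follicle and sebaceous duct, was at 40.6 and 38.2 CPM in WT and 23.9, 19.3 and 21.1 CPM in Pelo -/- (-0.87 ± 0.39, adjusted p = 0.774), with tight replicates in both groups. Plet1, a surface marker of the junctional zone, was at 62.7 and 37.4 CPM against 36.1, 64.9 and 42 CPM (-0.07 ± 0.44). Bulge and germ genes had 17 of 32 below 0 (median -0.04), with Cd34 at 22.2 and 39.8 CPM against 20.8, 9.71 and 9.63 CPM (-1.18 ± 0.68). Wound and stress keratins and cytokines had 10 of 19 below 0 (median -0.02), and Krt6a, induced in wounds, was at 21.7 and 12.7 CPM against 24.2, 61.2 and 6.51 CPM, in no order by genotype.

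In the sebaceous gland list the controls lay farther apart than in any other of the 43 lists. Of 23 sebaceous gland genes 12 were below 0 (median -0.08), and the median was -0.71 without WT replicate 1 and 1.18 without WT replicate 2. Sebocyte markers summed to 283 and 805 CPM in WT and 383, 633 and 359 CPM in Pelo -/-, a range inside that of the controls. Cholesterol synthesis had 15 of 23 below 0 (median -0.32, and 0.17 without WT replicate 2), with Pmvk, a kinase of the mevalonate pathway, at 41.1 and 59.1 CPM against 29.2, 35.8 and 4.64 CPM (-1.08 ± 0.49). Fatty acid and sphingolipid genes had 18 of 29 below 0 (median -0.13). Prostaglandin metabolism had the lowest median of any list, -0.36, with 13 of 21 below 0. Its members summed to 2710 and 3583 CPM in WT and 2362, 2098 and 1520 CPM in Pelo -/-, so all Pelo -/- libraries were below both controls, while the median member overlapped. Besides Hpgds, the reductase Ptgr1, which inactivates prostaglandins and leukotriene B4, was at 88.4 and 105 CPM against 34.3, 79.4 and 45.6 CPM (-0.87 ± 0.34, adjusted p = 0.752), with groups apart. Akr1c18 was at 1.93 and 264 CPM in WT, so 1 control set its value (-3.22 ± 1.32), and the list's median was 0.14 without WT replicate 2.

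Immediate early genes, which respond within minutes to growth signals and to handling of cells, had 21 of 28 values below 0 with a median of -0.24, which was -0.11 without WT replicate 2 and -0.46 without WT replicate 1. Atf3 was at 548 and 631 CPM in WT and 265, 375 and 155 CPM in Pelo -/- (-1.15 ± 0.64, adjusted p = 0.843). Fosl1 was at 12.8 and 20.2 CPM against 7.99, 9.88 and 1.59 CPM (-1.29 ± 0.57). Fos, a subunit of the AP-1 factor, was at 3051 and 3134 CPM against 2793, 2627 and 1385 CPM (-0.45 ± 0.61). In all 3 the Pelo -/- libraries were below both controls, replicate 3 being lowest, and Jun (0.06 ± 0.43) overlapped.

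Immune genes gave values of both signs. Interferon response genes had 21 of 31 above 0 with a median of 0.42, which was 1.25 without WT replicate 1 and 0.25 without WT replicate 2. In 3 of the 31 all Pelo -/- libraries were above both controls and in 3 below, beside 10.6% and 10.2% of all genes tested. The list summed to 396 and 477 CPM in WT and 374, 544 and 331 CPM in Pelo -/-, and its median member overlapped between the groups. Ddx58, the RNA sensor RIG-I, was at 5.64 and 1.12 CPM in WT and 8.86, 20.4 and 7.13 CPM in Pelo -/- (1.88 ± 0.77, adjusted p = 0.764), with all Pelo -/- libraries above the controls. Of the 7 tested T cell markers 6 had values above 0, and their sums, given above, were higher in all Pelo -/- libraries. Nkg7 was at 0 in both controls and 14 CPM in Pelo -/- replicate 2, and Cd3g was at 0 in replicate 1, and the part of these cells in the interferon values was not tested. Class I histocompatibility genes had 13 of 20 below 0 (median -0.07), with B2m at 3301 and 3045 CPM against 2929, 2954 and 3196 CPM. Class II genes had 5 of 8 below 0 (median -0.08), and antigen-presenting cell markers summed to 68.7 and 155 CPM against 79.3, 146 and 116 CPM.

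Among the signalling pathways edgeR called no member, and DESeq2 called Flcn of the mTOR list. In the EGF receptor family 16 of 26 were above 0 (median 0.18). Tgfa, a ligand of the receptor that Lrig1 restrains, was at 6.16 and 3.84 CPM in WT and 11.9, 14.6 and 31.3 CPM in Pelo -/- (1.92 ± 0.59, adjusted p = 0.649), and every Pelo -/- library was above both controls. The receptor gene Egfr itself was at 92.1 and 57.7 CPM against 74.7, 108 and 69.4 CPM (0.17 ± 0.30), with overlap. Cbl, the ubiquitin ligase that sends receptors to degradation, was at 31.7 and 38.4 CPM against 42.4, 75.3 and 53.5 CPM (0.70 ± 0.31).

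In the BMP and TGF-beta pathway 26 of 39 were above 0 (median 0.19, but 0.04 without WT replicate 2 and 0.33 without WT replicate 1), and the median member was higher in every Pelo -/- library than in both controls. The ligand Bmp2 was at 46.5 and 39.9 CPM in WT and 26.4, 23.6 and 23.4 CPM in Pelo -/- (-0.82 ± 0.36), while Id1, a target of the pathway, was at 20.7 and 13.5 CPM against 27.3, 43.8 and 25.6 CPM (0.92 ± 0.43). Ligand and target thus had opposite signs, each with groups apart and an adjusted p above 0.77. In the Wnt pathway 27 of 49 were below 0 (median -0.07). Wnt10a, a ligand of skin appendages, was at 64.8 and 23.8 CPM against 103, 72.8 and 74.5 CPM (0.92 ± 0.38), and Gsk3b, the kinase that marks beta-catenin for destruction, at 316 and 413 CPM against 181, 199 and 157 CPM (-1.03 ± 0.43). The target Axin2 was level, at 39.6 and 31.5 CPM against 39.9, 31.9 and 38.3 CPM (0.05 ± 0.30). Notch genes had 13 of 22 above 0 (median 0.22), Hedgehog genes 9 of 14 (0.13), Hippo and YAP genes 13 of 20 (0.12) and mTOR genes 17 of 32 (0.07).

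The remaining lists held autophagy and lysosome genes (19 of 28 below 0, median -0.11), Nrf2 targets (18 of 27 below 0, median -0.13), apoptosis genes (17 of 28 above 0, median 0.10), histone genes (9 of 18 above 0, median -0.01) and regulators of chromatin and stem cells (13 of 25 below 0, median -0.04). In the last, Eed of the Polycomb complex that methylates H3 was at 75 and 101 CPM in WT and 62.2, 53.7 and 45.4 CPM in Pelo -/- (-0.71 ± 0.31), and the methyltransferase Kmt2a, which acts against it, at 55.3 and 36 CPM against 64, 73.6 and 83.2 CPM (0.69 ± 0.31). Both had groups apart and an adjusted p above 0.77. Ezh2, the enzyme of the Eed complex, overlapped (-0.07 ± 0.35).

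Whether the differences were also seen in Lgr6 cells, which are sorted from the neighbouring isthmus, was read in libraries that share no control with the Lrig1 groups. The Lgr6 libraries entered the fit behind the choice of the 24 genes through its dispersion and filter, but their own genotype difference was not used in it. Of the 12 higher genes, 9 had values above 0 in Lgr6 cells (44.8% of all genes did), but the values lay between -0.22 and 0.44 with a median of 0.10, against 1.52 in Lrig1 cells. Of the 12 lower genes 6 were below 0 (55.2% of all genes were), with a median of 0.07 against -1.41 in Lrig1 cells. The exception in size was Sdr16c5, at -1.65 ± 0.50 in Lgr6 and -2.13 ± 0.55 in Lrig1 cells, and Ssr1 was at -0.55 ± 0.28 and -1.03 ± 0.30. In edgeR no gene was called for Lgr6 cells.

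The effect in Lrig1 cells minus that in Lgr6 cells was tested directly, and 0% of the 21141 genes were called in edgeR (1238, or 5.86%, at an unadjusted p under 0.05), in limma-voom 0 (918) and in DESeq2 87. For the 24 genes this difference had an unadjusted p under 0.05 in 20, and the adjusted p ran from 0.691 to 0.964. They were chosen for a small p and groups apart in Lrig1 cells, which favours a difference. The difference was -2.50 ± 0.63 for Atp5s (adjusted p = 0.691), -1.98 ± 0.45 for Cbr4, and 1.34 ± 0.50 for Flcn. Among genes taken for the smallest p of the difference alone, Polr3d, a subunit of RNA polymerase III, was at -1.10 ± 0.39 in Lrig1 and 1.07 ± 0.34 in Lgr6 cells (adjusted p of the difference 0.691). Pdk4, which switches off pyruvate dehydrogenase, was at 1.23 ± 0.50 and -1.16 ± 0.44 (adjusted p = 0.753), and Rbck1, a subunit of the linear ubiquitin ligase, at 1.06 ± 0.39 and -0.72 ± 0.33 (adjusted p = 0.788). For Shroom2, a regulator of cell shape, the difference was 3.47 ± 0.91, although 1 Pelo -/- Lrig1 library, at 4.02 CPM, lay below WT replicate 2 at 4.40 CPM.

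**Figure D5:**
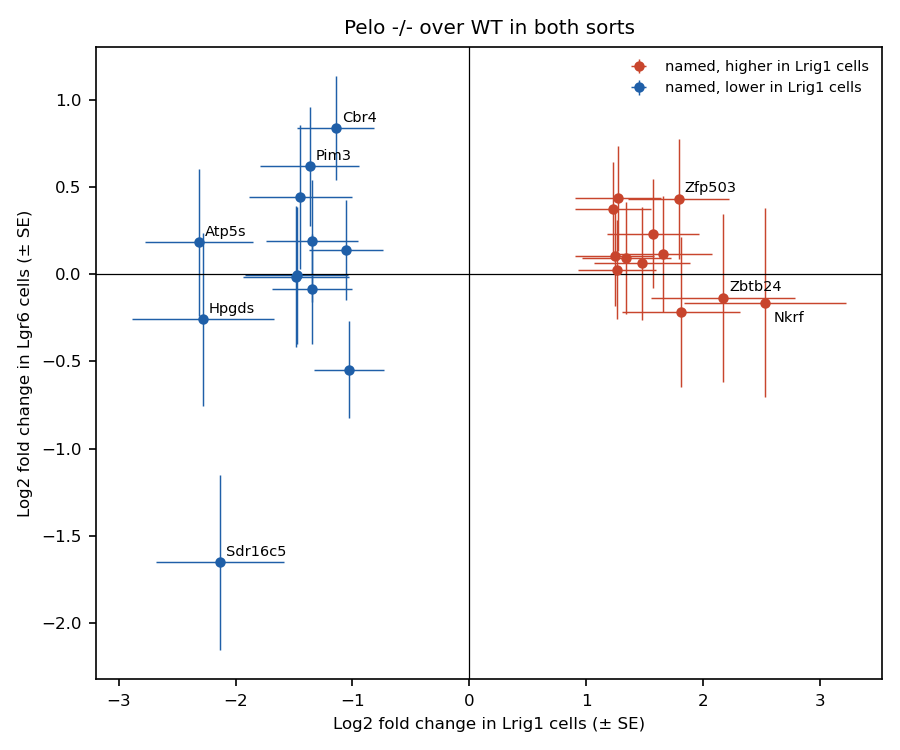
Log2 fold change of Pelo -/- over WT in Lrig1 cells (horizontal) and in Lgr6 cells (vertical) for the 24 named genes, with bars of 1 SE, red for the 12 higher and blue for the 12 lower in Lrig1 cells. Values in Lgr6 cells lie mostly within 0.6 of 0, apart from Sdr16c5 at -1.65, Cbr4 at 0.84 and Pim3 at 0.62.

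Against Lgr5 cells, from the lower bulge, the difference of effects was tested over 30405 genes and 17 libraries, and edgeR again called 0% (1750, or 5.76%, at an unadjusted p under 0.05) while DESeq2 called 62. Pim3 was among the genes with the smallest p in the direction of a lower effect in Lrig1 cells, with a difference of -3.53 ± 0.78. Its log2 fold change was 2.10 ± 0.57 in Lgr5 cells and -1.37 ± 0.42 in Lrig1 cells. Mtrr, the reductase that keeps methionine synthase active, had a difference of -3.73 ± 0.73 although it was at 20.4 and 32.5 CPM in WT and 17.1, 27.3 and 17.4 CPM in Pelo -/- Lrig1 cells, with overlapping groups, so that the value came mainly from Lgr5 cells. In the other direction, Thoc5, of the complex that exports messenger RNA, had a difference of 2.18 ± 0.70. It was at 7.99 and 21 CPM against 35.8, 28 and 25.8 CPM in Lrig1 cells (1.04 ± 0.42), and its log2 fold change in Lgr5 cells was -1.17 ± 0.48.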

How the data were processed

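RNA was measured in sorted mouse epidermal cells, and the authors deposited 1 table of raw counts per gene, used as it stood. STAR, edgeR, GRCm38 and mm10 are named in the submitters' processing notes. Counting tool, annotation and strand were not given in the sources used here. Of 48820 identifiers, 48058 matched a GENCODE M21 gene without the version, and 762, with 0.126% to 0.149% of the counts of a Lrig1 library, kept their identifier.

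Groups and replicate numbers came from the sample titles. The 11 Lrig1 and Lgr6 libraries entered 1 edgeR 4.0.16 quasi-likelihood fit (R 4.3.3, TMM, robust, 1 coefficient per group), because 2 controls give little estimate of spread. The Lgr5 libraries were left out of that fit since their replicates were known to agree less, and the difference from Lgr5 cells used a fit over all 17. Genes were kept by filterByExpr (minimum count 10, minimum total 15) with a call at an adjusted p (Benjamini-Hochberg) under 0.05. SE was taken as the absolute log2 fold change divided by the root of the F statistic. The common dispersion was 0.388 with 7 residual degrees of freedom. Replicates were no copies of each other (chi-square per degree of freedom 45.1 to 78.5). Scripts were tested on simulated data.

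Members, gene lists and the fit were chosen with earlier results of these data known. Named genes were, per direction, the 12 with the smallest p among protein-coding genes of mean log2 CPM of at least 3 and groups that do not overlap, 6 per direction for each difference, Pelo, Hbs1l, Abce1, Itga1, Lrig1, Lgr5 and Lgr6, and in each list the leading 3 members and the 4 with the smallest p. The text prints those it needs. Alternatives were RLE factors, no filter, a minimum mean CPM of 5, DESeq2 1.42.0, limma-voom (limma 3.58.1) with and without quality weights, the legacy fit, other sets of libraries, a replicate block and leaving out each library.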

Additional observations from a re-analysis of the deposited data

How the results depend on the processing

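The count of genes called in Lrig1 cells was 0 with RLE factors, a minimum mean CPM of 5, limma-voom, limma-voom with quality weights, the legacy fit and the 5 Lrig1 libraries alone. It was 257 (71 higher, 186 lower) of 45596 without a filter on low counts, 65 in DESeq2 (48 higher, 17 lower, with 3376 adjusted p not given) and 2 over all 17 libraries. Of the 257 genes without a filter, 42 had a mean log2 CPM of at least 3, among them Atp5s, Sdr16c5 and Hpgds. Of the 65 genes in DESeq2, 20 had a mean log2 CPM of at least 3. Leaving out 1 library gave 0 to 19 calls, with 19 lower genes without WT replicate 1, 11 lower genes without WT replicate 2 and 0 without any Pelo -/- library, and the 1 control left is then assumed to vary like the other groups. None of the 19 or 11 had a mean log2 CPM of at least 3. Without WT replicate 1 the median over all genes was 0.18 rather than 0.03. For the difference from Lgr6 cells the count was 192 without a filter and 87 in DESeq2, and for that from Lgr5 cells 62 in DESeq2. Other settings of these differences gave 0. The cause was not tested.

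Replicate numbers are shared by the genotypes. The deviations of same-numbered libraries had correlations of 0.01 and 0.08 in Lrig1 and 0.10, 0.19 and 0.12 in Lgr6 cells. Differently numbered pairs ran from -0.08 to 0.06 in Lrig1 and from -0.13 to 0.03 in Lgr6 cells. The deviations of the 2 WT Lrig1 libraries mirror each other, so whether same-numbered Lrig1 libraries are paired cannot be told from these values. With a replicate block 0 genes were called (1511 at an unadjusted p under 0.05), and 0 for the difference from Lgr6 cells. The value of Itga1, which was called in no setting, was -0.18 with the block. Of the list medians under other settings 551 moved by less than the spread between replicates and 94 moved by more.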
